A study of Mus musculus with 32 samples.

Results

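The integrin subunits described here are 10 genes of mouse skeletal muscle, chosen by name: the alpha subunits Itga1, Itga3, Itga5, Itga6, Itga7, Itga9 and Itgav, the beta subunits Itgb1 and Itgb5, and Itgb1bp2, whose product melusin binds the inner tail of the beta1 subunit. All 10 were found among the 24952 genes measured, and all 10 were among the 13990 genes that reached 1 CPM (counts relative to the library's total) in at least 8 libraries and were tested. The study captured regions of the tibialis anterior (TA) muscle by laser from wild-type male C57BL/6JRj mice, either synaptic regions stained with alpha-bungarotoxin (NMJ) or regions away from the synapse (xNMJ). Mice were 10 months (10m) or 30 months (30m) old, were caged singly, and all received the AIN93M diet, the older mice for a longer time. Age and region made 4 groups of 8 libraries, named 10m NMJ, 10m xNMJ, 30m NMJ and 30m xNMJ, and each library came from many captured regions pooled into 1 sample, so that it held the muscle fiber together with any nerve, Schwann, connective tissue or vessel cells lying within it. The labels did not say which NMJ and xNMJ libraries came from the same animal, and p-values measure the spread between libraries.

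Integrins are receptors of 1 alpha and 1 beta chain that span the cell membrane, bind proteins of the extracellular matrix outside and link them to the actin cytoskeleton inside. In adult muscle the laminin receptor of the alpha7 and beta1 chains holds the fiber to its basal lamina, most densely at the neuromuscular and myotendinous junctions. The alphav chain, which can pair with beta5 and several other beta chains, binds matrix proteins such as vitronectin, while the alpha1 chain is known for collagen, alpha5 for fibronectin, alpha3 and alpha6 for laminins, and alpha9 for tenascin-C and osteopontin.

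The labels of the regions were checked against marker genes. All 9 markers of the subsynaptic fiber region, among them the acetylcholine receptor subunits Chrna1 and Chrnd and the kinase subunit Prkar1a, were higher in NMJ at both ages. By the test described below, 6.5% of all tested genes were higher in NMJ at 10 months and 5% at 30 months. The summed level of the 9 markers was between 1131 and 2324 TPM (the unit that corrects for the length of transcripts) in 10m NMJ and between 1788 and 2594 in 30m NMJ, against 22.3 to 59.0 in 10m xNMJ. In 30m xNMJ, 7 libraries lay between 20.3 and 32.6 TPM, and replicate 5 stood apart at 292, so comparisons at 30 months are given with and without it where it matters. Fiber genes were abundant in all groups, with Acta1, the skeletal actin, at a mean of 18082 TPM in 10m xNMJ and 15206 in 10m NMJ. Total counts were between 4026648 and 16516788 per library. The smallest amount treated here as detection, 3 counts, thus corresponded to 0.182 to 0.745 CPM before the scaling described below. After scaling, the same floor was 0.933 CPM in 10m xNMJ replicate 1. This floor covers counting error only. Depth and insert size differed with region. The median total was 6062117 counts in 10m xNMJ and 9605869 in 10m NMJ, and 6790011 and 9825357 at 30 months. The average insert size given in the labels had a median of 93.5 bases in 10m xNMJ (79 to 108) and of 117.5 in 10m NMJ (52 to 131), and of 96 (79 to 130) and 107 (101 to 129) at 30 months. With insert size as a covariate the fit called 1135 genes at 10 months in place of 1615, and 1231 in place of 1295 at 30 months, and the integrin genes called were the same 4 and 3. The part of depth in the region differences was not tested.

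Comparisons between regions depend on how libraries are put on one scale. CPM values below were scaled by TMM factors, which assume that the typical gene does not differ and were higher in NMJ than in xNMJ libraries (medians 1.21 and 0.831 at 10 months, 1.25 and 0.765 at 30 months). With library totals alone in their place, the median gene was 0.56 higher in NMJ on the log2 scale at 10 months and 0.61 higher at 30 months. The genes called by edgeR's quasi-likelihood test (adjusted p under 0.05 over all tested genes) then changed from 909 higher and 706 lower to 2659 higher and 210 lower at 10 months, and from 700 higher and 595 lower to 2687 higher and 76 lower at 30 months. A region difference given here is therefore one relative to the typical gene, unless the scale is named.

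At 10 months Itgb5, Itga9 and Itga7 were higher in NMJ than in xNMJ and Itgb1bp2 was lower, so that 4 of the 10 genes were called, against 11.5% of all tested genes (6.5% higher and 5.05% lower). At 30 months Itgb5 and Itgb1 were higher and Itgb1bp2 was lower, which made 3 of 10 against 9.26% of all tested genes (5% higher and 4.25% lower). Itga3, Itga5 and Itga9 reached 1 CPM in at least 8 libraries only with NMJ libraries counted. Their entry to the test thus depended on those libraries. The median log2 difference over the 10 genes was 1.18 at 10 months and 0.76 at 30 months, beside 0.00 and -0.01 over all tested genes. The members were chosen with earlier results of these data known. These counts and medians are thus a description and not a test against other genes. The groups did not overlap for Itgb5, Itga9 and Itgb1bp2 at 10 months, which held for 3.42% of all tested genes, and for Itgb5 at 30 months, which held for 2.46%. No member was called between the ages. With a replicate block, an alternative described at the end, the call of Itga7 at 10 months was lost. The block also called Itga1 at 10 months and Itga9 and Itgav at 30 months, although the labels do not pair the libraries. As elsewhere in captured tissue, more cells of one type and more RNA per cell cannot be told apart.

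**Figure D1:**
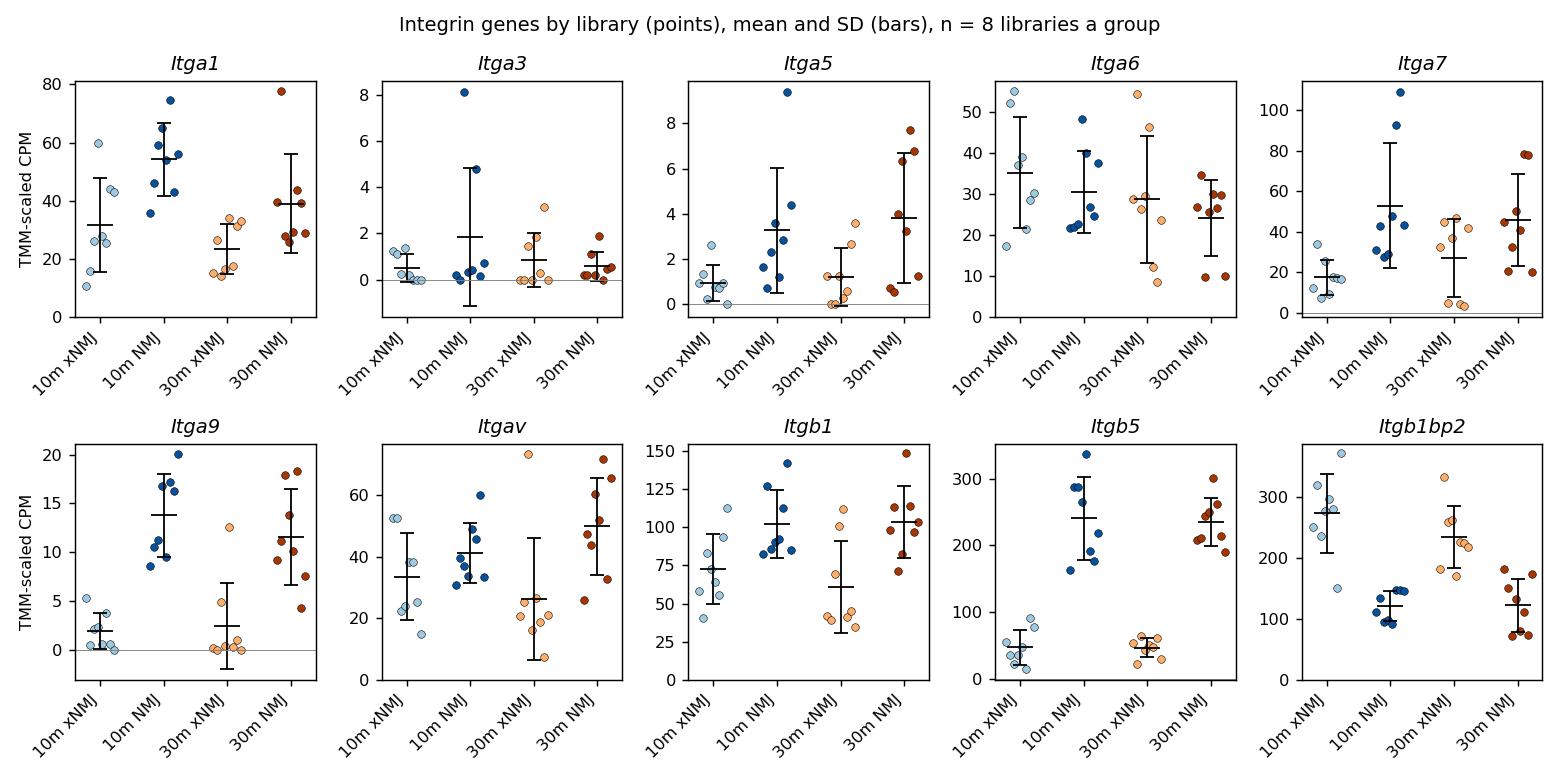
TMM-scaled CPM (vertical axis, from 0) of each integrin gene in every library, as points, with the mean and SD of the 8 libraries of each group as bars. Itgb5 reaches 162 or more in every 10m NMJ library and at most 91.2 in any 10m xNMJ library, while Itga6 overlaps widely between all 4 groups.

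Itgb5, the beta5 chain, had the smallest p of the 10 genes at both ages. In 10m xNMJ its 8 libraries had a lowest value of 14.6, a median of 41.6 and a highest value of 91.2 CPM. In 10m NMJ the lowest was 162, the median 243 and the highest 337 CPM. Every NMJ library thus exceeded every xNMJ library, and the same was seen in the older mice. There the xNMJ libraries had 22.7, 49.1 and 64.0 CPM as lowest, median and highest values, and the NMJ libraries 191, 230 and 301 CPM. The log2 fold change was 2.35 ± 0.27 (SE) at 10 months (5.09-fold, edgeR, adjusted p = 1.67e-07) and 2.34 ± 0.27 at 30 months (5.05-fold, adjusted p = 2.91e-07). With library totals alone it was larger, at 2.90 ± 0.28 and 2.97 ± 0.28.

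Itgb1, the beta1 chain with which most alpha chains of the group pair, differed less. Its libraries had lowest, median and highest values of 40.3, 68.5 and 113 CPM in 10m xNMJ and of 82.5, 91.5 and 142 CPM in 10m NMJ. At 30 months the values were 34.8, 43.8 and 112 CPM in xNMJ and 71.1, 101 and 149 CPM in NMJ. The groups overlapped at both ages, since 3 of the 10m and 2 of the 30m xNMJ libraries reached the range of the NMJ libraries. Its log2 fold change was 0.49 ± 0.23 at 10 months (adjusted p = 0.197) and 0.77 ± 0.23 at 30 months (1.70-fold, adjusted p = 0.0310). The call at 30 months was lost when any one of 8 libraries was left out (5 of xNMJ and 3 of NMJ, adjusted p up to 0.0729) and when only the 2 groups were fitted (0.73, adjusted p = 0.0845). Without the outlying xNMJ replicate 5 it was 0.96 ± 0.23 (adjusted p = 0.00398). On library totals Itgb1 was called at both ages, at 1.05 ± 0.24 (adjusted p = 0.00170) and 1.40 ± 0.24 (adjusted p = 7.02e-05).

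Because numbers of counts in one library share its scaling, Itgb5 was also set against Itgb1 within each library, a ratio chosen after values had been seen. The ratio of the TPM of Itgb5 to that of Itgb1 had a median of 0.632 in 10m xNMJ, with a range of 0.236 to 0.962, and of 2.07 in 10m NMJ, with a range of 1.16 to 3.30. At 30 months the medians were 0.932 in xNMJ (0.448 to 1.36) and 1.95 in NMJ (1.69 to 3.13). The regions did not overlap at either age, also when the ratio was taken of counts. Of all other tested genes, 3.03% had ratios of counts to Itgb1 without overlap at 10 months and 3.32% at 30 months (1.19% and 0.844% on the higher side). Itgb5 was the only one of the 9 genes set against Itgb1 for which this held. The ratio for Itgav, which can pair with either beta chain, had medians of 0.189 and 0.177 in xNMJ and NMJ at 10 months and of 0.192 and 0.214 at 30 months, and the regions overlapped.

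**Figure D2:**
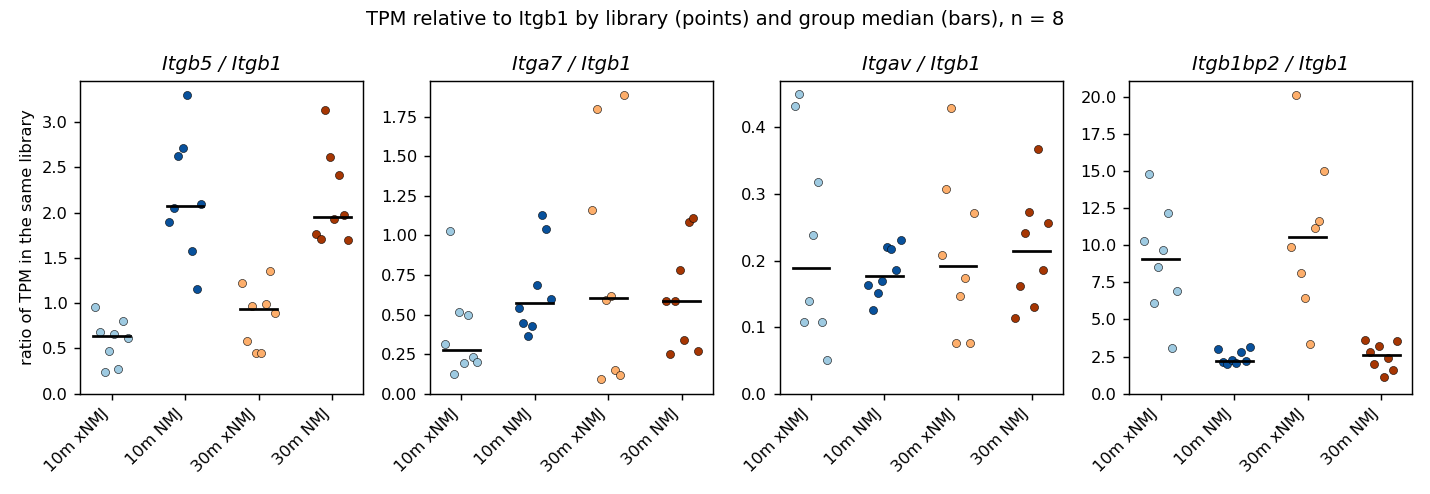
TPM of Itgb5, Itga7, Itgav and Itgb1bp2 divided by the TPM of Itgb1 in the same library (vertical axis, linear from 0), one point per library with the group median as a bar. For Itgb5 all NMJ libraries at 10 months lie at 1.16 or above and all xNMJ libraries at 0.962 or below, whereas the Itgav ratios of the regions overlap.

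Promoter windows from RefSeq (GRCm38.p6), 250 bases before to 50 after the annotated start, are shown for the 2 beta chains because both were higher in NMJ at 30 months yet carried different motifs. Both strands were searched for the N-box CCGGAA, the motif bound by GABP at promoters of synaptic genes, and for the E-box CANNTG, bound by myogenic factors. An N-box read from the other strand is TTCCGG, the 2 motifs do not overlap each other here, and motifs are in capitals. Itgb5 is on the plus strand at chr16:33829415-33829714, and Itgb1 is on the plus strand at chr8:128685404-128685703.
Itgb5: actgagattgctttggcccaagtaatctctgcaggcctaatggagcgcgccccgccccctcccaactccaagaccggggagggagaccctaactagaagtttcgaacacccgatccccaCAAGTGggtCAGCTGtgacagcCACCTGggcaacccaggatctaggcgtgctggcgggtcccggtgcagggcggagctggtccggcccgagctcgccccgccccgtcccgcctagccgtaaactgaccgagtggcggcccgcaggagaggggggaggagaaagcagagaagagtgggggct
Itgb1: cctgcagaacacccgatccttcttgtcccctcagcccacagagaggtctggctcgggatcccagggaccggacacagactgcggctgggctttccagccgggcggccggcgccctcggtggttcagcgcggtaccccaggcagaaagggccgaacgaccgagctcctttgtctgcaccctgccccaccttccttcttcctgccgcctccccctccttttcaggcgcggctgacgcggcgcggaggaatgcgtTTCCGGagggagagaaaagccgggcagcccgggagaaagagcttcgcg
The Itgb5 window held 3 E-boxes, 131, 122 and 109 bases before the start, and no N-box. The Itgb1 window held 1 N-box, 3 bases into the transcript, and no E-box. Among 32851 promoter windows of the same length, 14.9% held an N-box and 72.3% an E-box, so both motifs are common. Windows were found for 7 of the 10 genes, 8 windows in all, of which 2 held an N-box (Itgb1 and 1 of the 2 windows of Itga3) and 6 an E-box. The window of Itga9, with 3 E-boxes, lay inside the gene as GENCODE M21 draws it, and none was given for Itga6, Itga7 and Itgb1bp2.

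Itga7, the alpha chain of the main laminin receptor of adult fibers, rose in NMJ at 10 months. Its libraries had lowest, median and highest values of 7.56, 17.1 and 34.0 CPM in 10m xNMJ and of 27.6, 42.9 and 109 CPM in 10m NMJ. One xNMJ library, at 34.0 CPM, reached into the NMJ range. NMJ exceeded xNMJ by 1.58 ± 0.46 on the log2 scale (3.00-fold, edgeR, adjusted p = 0.0190), and the call was lost without 10m NMJ replicate 7, the library at 109 CPM (1.35, adjusted p = 0.0578). In 30m xNMJ the libraries fell into separate ranges, 3 of them between 3.36 and 4.92 CPM and 5 between 32.7 and 46.8 CPM. The 30m NMJ libraries had 20.1, 42.9 and 78.3 CPM as lowest, median and highest values and overlapped with the 5 higher ones. The log2 fold change at 30 months was 0.75 ± 0.45 (adjusted p = 0.370). On library totals it was 1.34 ± 0.46 and was called (adjusted p = 0.0383). The region difference at 30 months minus that at 10 months was -0.83 ± 0.64, an interaction that edgeR did not call, so the ages were not shown to differ. An exon of the coding gene Mettl7b overlaps Itga7 on the other strand, and reads were assigned without strand.

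Itga9, the alpha9 chain, was near the floor in xNMJ and passed the filter only with NMJ libraries counted. Its 10m xNMJ libraries had 0, 1.35 and 5.29 CPM as lowest, median and highest values, and its 10m NMJ libraries 8.57, 13.7 and 20.03 CPM, without overlap. On the log2 scale the difference was 2.90 ± 0.79 (7.48-fold, adjusted p = 0.0118). At 30 months 7 of the 8 xNMJ libraries lay between 0 and 4.92 CPM and replicate 5, which also had the high synaptic markers, at 12.6 CPM. The 30m NMJ libraries had 4.24, 10.7 and 18.4 CPM as lowest, median and highest values. The log2 fold change at 30 months was 2.19 ± 0.76 (adjusted p = 0.0656), and without xNMJ replicate 5 it was 3.52 ± 0.76 (adjusted p = 0.00156). The difference at 30 months was also called without 10m xNMJ replicate 8 (2.18 ± 0.72, adjusted p = 0.0490). On library totals Itga9 was called at both ages, at 3.47 ± 0.81 (adjusted p = 0.00234) and 2.79 ± 0.77 (adjusted p = 0.0103).

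Itgb1bp2 (melusin), which binds the beta1 tail and is made mainly in heart and skeletal muscle, went the other way. Its libraries had lowest, median and highest values of 150, 280 and 373 CPM in 10m xNMJ and of 91.4, 124 and 147 CPM in 10m NMJ, without overlap. At 30 months the values were 170, 225 and 333 CPM in xNMJ and 72.3, 122 and 182 CPM in NMJ, and 2 NMJ libraries reached the xNMJ range. NMJ differed from xNMJ by -1.17 ± 0.20 on the log2 scale at 10 months (0.445-fold, adjusted p = 0.000103) and -0.94 ± 0.20 at 30 months (0.521-fold, adjusted p = 0.00174). On library totals it was -0.62 ± 0.21 at 10 months, still called (adjusted p = 0.0365), and -0.29 ± 0.21 at 30 months, where the call was lost (adjusted p = 0.345). Limma on log2(TPM + 1) also lost the call at 30 months (-0.39, adjusted p = 0.193), as did limma on log2(TPM + 0.1). Within a library, the TPM of Itgb1bp2 was 9.08 times that of Itgb1 at the median of 10m xNMJ and 2.23 times in 10m NMJ, and the medians were 10.5 and 2.59 at 30 months. These ranges touched at both ages, since 1 library of 10m xNMJ had a ratio of 3.09 and 1 of 30m xNMJ a ratio of 3.34.

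**Figure D3:**
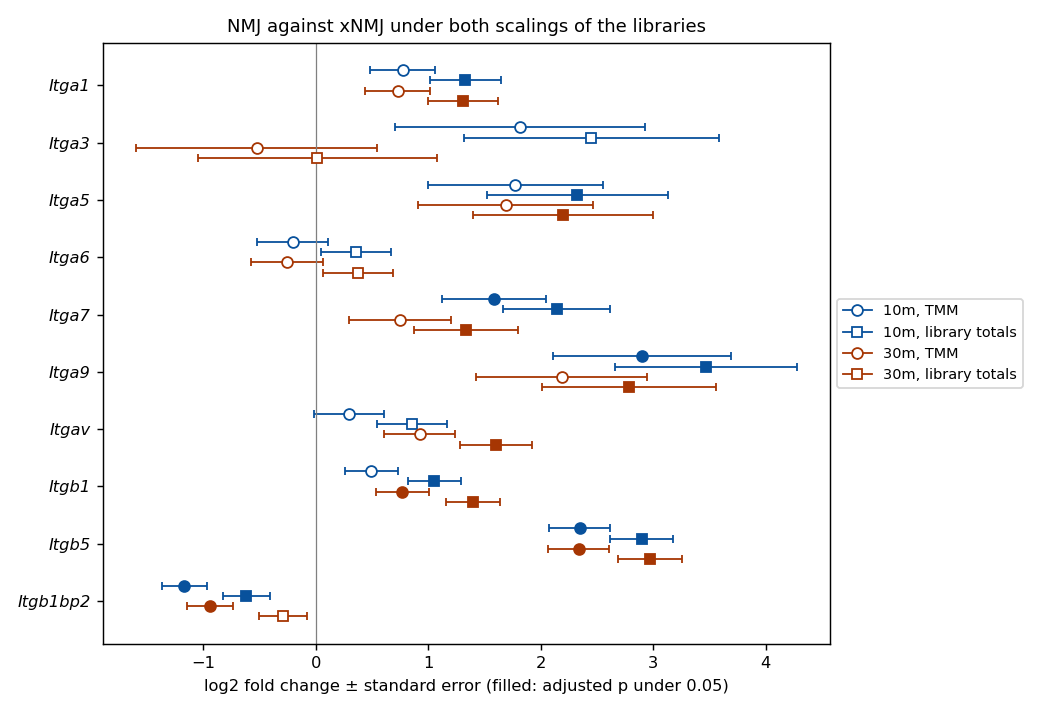
Log2 fold change of NMJ against xNMJ with its standard error (horizontal axis) for each integrin gene, at 10 months (blue) and 30 months (brown), under TMM factors (circles) and under library totals (squares), filled where the adjusted p was under 0.05. Itgb5 lies at 2.34 or above under both scalings, Itgb1bp2 stays below 0 but loses its call at 30 months under library totals, and the sign turns under library totals for Itga6 at both ages and for Itga3 at 30 months.

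The remaining alpha chains were not called between regions at either age in the edgeR fit of the 4 groups with TMM factors. Itgav, the chain that pairs with beta5, had lowest, median and highest values of 15.0, 31.8 and 52.6 CPM in 10m xNMJ and of 30.9, 38.3 and 60.1 CPM in 10m NMJ. At 30 months they were 7.45, 21.0 and 73.5 CPM in xNMJ and 25.9, 49.7 and 71.7 CPM in NMJ, and a single xNMJ library, replicate 3, held the 73.5 CPM while the other 7 lay at 26.7 CPM or below. The log2 fold change of Itgav was 0.30 ± 0.31 at 10 months (adjusted p = 0.624) and 0.92 ± 0.31 at 30 months (adjusted p = 0.0588). The latter was called when any one of 4 libraries was left out, with adjusted p = 0.00125 and a value of 1.35 without xNMJ replicate 3, and adjusted p between 0.0391 and 0.0498 without 10m xNMJ replicate 8, 30m NMJ replicate 1 or 30m NMJ replicate 7. On library totals it was 1.60 ± 0.32 (adjusted p = 0.000513). A processed transcript of the gene Gm13684 overlaps Itgav on the other strand.

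Itga1, the collagen-binding alpha1 chain, had a median at 10 months of 27.0 CPM in xNMJ (10.6 to 59.9) and of 55.1 in NMJ (35.7 to 74.5), and at 30 months of 21.98 in xNMJ (14.03 to 34.0) and of 34.1 in NMJ (25.7 to 77.8). Its log2 fold change was 0.77 ± 0.29 at 10 months (adjusted p = 0.0805) and 0.73 ± 0.29 at 30 months (adjusted p = 0.120). Its call at 10 months turned on 1 library, 10m xNMJ replicate 4, without which it was 0.97 (adjusted p = 0.0225), and on library totals it was called at both ages (1.33 and 1.31). Exons of the coding gene Gm49395 overlap Itga1 on the same strand, so reads could be split between them.

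Itga6, a laminin-binding chain, had a median at 10 months of 33.7 CPM in xNMJ (17.4 to 55.3) and of 25.8 in NMJ (21.7 to 48.4), and at 30 months of 27.6 in xNMJ (8.65 to 54.4) and of 26.8 in NMJ (9.84 to 34.8). Its log2 fold change was -0.21 ± 0.32 at 10 months and -0.25 ± 0.32 at 30 months, and 0.36 ± 0.31 and 0.38 ± 0.31 on library totals, none of them called. Itga5, of the fibronectin receptor, was low, with medians of 0.828 and 2.57 CPM in xNMJ and NMJ at 10 months and of 0.908 and 3.60 CPM at 30 months. Its log2 fold change was 1.77 ± 0.78 at 10 months (adjusted p = 0.156) and 1.69 ± 0.78 at 30 months (adjusted p = 0.200), and it was called at both ages on library totals (2.33 and 2.20). Itga3, another laminin-binding chain, was at or under the floor of 3 counts in 17 of 32 libraries (Itga5 and Itga9 in 8 each), with medians of 0.210, 0.357, 0.146 and 0.345 CPM in the same order of groups. Its highest values, 8.12 and 4.78 CPM, were those of 10m NMJ replicates 3 and 6. No difference between regions was called at either age (1.82 ± 1.11 and -0.52 ± 1.07), and the standard errors were wide.

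Levels of different genes were compared by TPM. In 10m xNMJ the order of the means (± SD, n = 8) began with Itgb1bp2 at 217 ± 51.4, far above Itga6 at 42.7 ± 15.2, Itgb1 at 26.8 ± 7.96, Itgb5 at 15.7 ± 8.41 and Itga7 at 9.01 ± 4.45. It ended with Itgav at 5.29 ± 2.59, Itga1 at 2.89 ± 1.21, Itga9 at 0.681 ± 0.363, Itga5 at 0.214 ± 0.156 and Itga3 at 0.112 ± 0.130. In 10m NMJ Itgb5 stood second at 117 ± 32.6, within the spread of Itgb1bp2 at 134 ± 30.8 and above Itgb1 at 55.7 ± 13.3. The 3 genes that followed Itgb5, namely Itgb1, Itga6 at 45.4 ± 9.80 and Itga7 at 37.9 ± 23.1, lay within each other's spread. Below them were Itgav at 10.1 ± 2.70, Itga1 at 7.10 ± 1.94, Itga9 at 4.17 ± 1.65, Itga5 at 1.04 ± 0.865 and Itga3 at 0.716 ± 1.0. The order in 30m xNMJ matched that in 10m xNMJ, and that in 30m NMJ differed from 10m NMJ only in that Itga7 at 34.2 ± 16.1 and Itga6 at 31.5 ± 10.9, which are within their spread, changed places. The level of Itga6 against the other genes is doubtful, because the length implied by its TPM and counts was 887 bases at the median, while its coding transcripts in GENCODE M21 are 3313 to 4310 bases long. For Itga9 the implied length varied from under its shortest to its longest transcript between libraries, so its TPM can shift with the transcript to which few reads were assigned.

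Between 30 and 10 months none of the 10 genes was called in NMJ, where 0 of all tested genes were called by edgeR (372 with an unadjusted p under 0.05). None was called in xNMJ either, where 0.0429% of tested genes, 6 in number, were (1322 with an unadjusted p under 0.05). The interaction of age and region called 0 of the 10 and 0 of all genes (708 with an unadjusted p under 0.05). None of the 10 had an unadjusted p under 0.05 in these 3 comparisons, the smallest being 0.104 for Itga1 in NMJ, 0.143 for Itga1 in xNMJ and 0.139 for Itga3 in the interaction. DESeq2 and limma on log2(TPM + 1) called none of the 10 either. Itgb5 was close to equal at both ages, with log2 changes of -0.03 ± 0.26 in NMJ and -0.02 ± 0.26 in xNMJ. Itgb1 changed by 0.02 ± 0.23 and -0.26 ± 0.23 and Itgb1bp2 by 0.01 ± 0.20 and -0.22 ± 0.20. For Itga7 the values were -0.21 ± 0.45 and 0.62 ± 0.46, and for Itgav 0.28 ± 0.31 and -0.35 ± 0.31. Standard errors of the changes with age within a region were between 0.20 for Itgb1bp2 and 1.12 for Itga3, so modest changes of the less abundant genes would not have been seen.

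**Figure D4:**
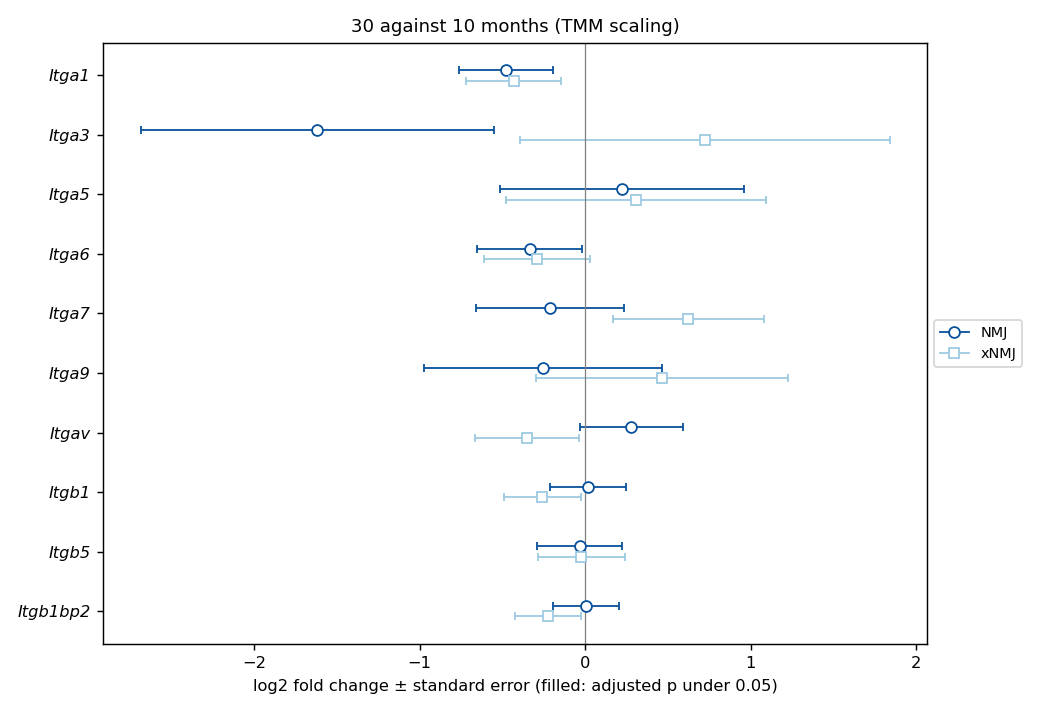
Log2 fold change of 30 against 10 months with its standard error (horizontal axis) for each integrin gene, in NMJ (dark circles) and xNMJ (light squares), with TMM factors. All points are open, since no adjusted p was under 0.05, and the widest bars are those of Itga3, at 1.07 and 1.12.

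The genes most like each member were found by the Spearman correlation of log2 CPM over the 32 libraries, as a description in which all points share their library's depth and region. Itgb5 was most like Prr29 (rho = 0.938), Chrne, the epsilon subunit of the adult acetylcholine receptor (0.899), and the transporter Slc16a6 (0.893). Itgb1bp2 was most like genes of mitochondrial metabolism, Hadha of fatty acid oxidation (0.885) and Atp5b of ATP synthase (0.880). Itga9 was most like Plekha4 (0.884), the macrophage mannose receptor Mrc1 (0.873) and the chaperone Hsp90b1 (0.846). Itga7 was most like the sialyltransferase St6gal1 (0.725), Lgi4, a Schwann cell protein (0.718), and the splicing factor U2af2 (0.714). Itgb1 was most like Ehd4 (0.784), Saa1 (0.773) and Os9 (0.742), and Itga1 like the matrix gene Sparc (0.776), Scd2 (0.737) and the collagen gene Col5a2 (0.732). For Itga6 the 3 genes were Higd2a (0.774), Naa38 (0.742) and Cox6b1 (0.728), for Itga5 Mark2 (0.742), Tec (0.687) and Tmem176b (0.679), and for Itga3 Rdh11 (0.657), Ino80c (0.624) and Tceal9 (0.622). Itgav was most like Srpx2 (0.694) and Il1rap (0.679). Between members, Itgb5 and Itgb1bp2 had a rho of -0.850, which was -0.370 once group means were removed. For Itgb5 and Itga9 the 0.732 became 0.0304, and for Itgb5 and Itgb1 the 0.603 became 0.305.

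Other integrin subunits were mostly low. Of 18 further genes, measured under 19 identifiers, 12 identifiers were tested. At 10 months 3 were higher in NMJ, namely Itgb8 and Itgb3, whose products pair with alphav, and Itga2, a collagen-binding chain, and Itgb6, another partner of alphav, was lower, beside 6.5% of all tested genes called higher and 5.05% lower. At 30 months Itgb8 alone was called, 1 of 12 beside 5% called higher, a count near the background. Mean TPM of Itgb8 was 0.0787 ± 0.169 (SD) in 10m xNMJ and 0.922 ± 0.597 in 10m NMJ, and 0.0238 ± 0.0320 and 1.47 ± 0.822 at 30 months. Its regions did not overlap at 30 months, which held for 2.46% of all tested genes. The log2 fold changes of Itgb8 were 3.96 ± 0.89 (edgeR, adjusted p = 0.00223) and 5.82 ± 0.98 (adjusted p = 9.83e-05). Itgb6, the most abundant of these genes, had a mean of 8.49 ± 4.06 TPM in 10m xNMJ and 3.93 ± 1.84 in 10m NMJ (-1.50 ± 0.34, adjusted p = 0.00270), and 6.37 ± 3.65 and 9.49 ± 4.30 at 30 months (0.03 ± 0.34, adjusted p = 0.970). Itga2 was 3.60 ± 0.90 higher on the log2 scale at 10 months (adjusted p = 0.00550). The median log2 difference of the 12 was 0.57 at 10 months and 0.32 at 30 months. On library totals Itgb6 was still lower at 10 months (-0.96 ± 0.35, adjusted p = 0.0469), Itga4, a partner of beta1, was called higher at 10 months (1.33 ± 0.39, adjusted p = 0.0156), and Itga2 was also called higher at 30 months (2.87 ± 0.85, adjusted p = 0.0160).

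Of 32 genes for proteins that join integrins to the cytoskeleton or carry their signals, 28 were tested. Zyx, a protein of focal adhesions, and Pxn, the adaptor paxillin, were higher in NMJ at 10 months (1.93 ± 0.51, adjusted p = 0.00893, and 1.21 ± 0.40, adjusted p = 0.0405). These 2 of 28 stand beside 6.5% of all tested genes called higher at 10 months, and 1 of 28 beside 5% at 30 months, so both counts were near the background. Pxn alone was called at 30 months (1.99 ± 0.41, edgeR, adjusted p = 0.00109), when its mean was 14.2 ± 3.70 TPM in NMJ and 2.21 ± 1.53 in xNMJ. Its regions did not overlap at 30 months, which held for 2.46% of all tested genes. None of the 28 was lower. The most abundant, Actn2 of the Z-disc, had differences of 0.01 ± 0.23 and -0.15 ± 0.23. The median of the list was 0.23 at 10 months and 0.24 at 30 months. Without 30m xNMJ replicate 5, Zyx was also called at 30 months (1.60, adjusted p = 0.0488, against 1.52 with it). On library totals 7 were higher at 10 months and 8 at 30 months, beside 19% and 19.2% of all tested genes, none was lower, and Actn2 stood at 0.57 ± 0.22 and 0.48 ± 0.22, not called.

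Of 25 genes for matrix proteins that integrins bind, 24 were tested, and 9 were higher and none lower in NMJ at each age, beside 6.5% and 5% of all tested genes called higher. The median log2 difference was 1.29 at 10 months and 1.34 at 30 months, and on library totals 13 and 17 were higher, beside 19% and 19.2% of all tested genes, and still none lower. The list was chosen with earlier results of these data known, so these counts are a description and not a test. Without 30m xNMJ replicate 5, 11 were higher at 30 months. With any single library left out, 7.93% to 10.6% of all tested genes were called at 30 months, higher and lower together. Lama2, the alpha chain of the laminin around muscle fibers, had a mean of 1.70 ± 0.971 TPM in 10m xNMJ and 24.5 ± 8.72 in 10m NMJ (3.20 ± 0.45, adjusted p = 4.06e-06). Lamb2, the beta2 laminin chain of the synaptic basal lamina and the most abundant gene of the list, had 13.4 ± 5.67 and 66.5 ± 13.5 TPM (1.95 ± 0.30, adjusted p = 1.79e-05). Postn (periostin) differed most, with 0.111 ± 0.284 and 26.8 ± 11.5 TPM (6.88 ± 0.87, adjusted p = 7.31e-07), and Col1a2, a chain of fibrillar collagen, had 5.97 ± 3.05 and 26.6 ± 7.76 TPM (1.75 ± 0.25, adjusted p = 8.38e-06). At 30 months the log2 fold changes of Lama2, Lamb2, Postn and Col1a2 were 2.19, 1.55, 5.66 and 1.83, all called and all without overlap between regions. Of all tested genes 2.46% did not overlap at 30 months, and these ligand genes were named for a small p or a high level. No gene of these 3 lists was called between the ages or in the interaction.

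Markers of several other cell types differed with region as well. Their counts stand beside 6.5% of all tested genes called higher at 10 months and 5% at 30 months. The marker lists were also chosen with earlier results of these data known, so the counts are a description. Of 8 Schwann cell markers 7 were higher in NMJ at both ages, and their sum had a mean of 4.95 ± 2.30 TPM in 10m xNMJ and 144 ± 11.5 in 10m NMJ, and of 6.07 ± 3.34 and 128 ± 19.2 at 30 months. Of 6 macrophage markers 4 were higher at 10 months and 3 at 30 months. Their sum had a mean of 110 ± 85.2 TPM in NMJ against 6.48 ± 6.30 in xNMJ at 10 months and of 74.0 ± 31.0 against 7.97 ± 7.96 at 30 months, with C1qb the most abundant. Adgre1, which encodes F4/80, was listed at 0 in 4 libraries of 10m xNMJ, in all 8 of 30m xNMJ and in none of NMJ. Of 6 fibroblast markers 4 were higher at both ages (sum 145 ± 68.8 against 911 ± 193 TPM at 10 months and 119 ± 42.4 against 924 ± 168 at 30 months), led by Dcn. Of 4 tested muscle stem cell markers only Sdc4, the most abundant, was called, higher at both ages, and the median of the 4 was -0.03 at 10 months, with Cdh15 lowest at -1.36 ± 0.64 (adjusted p = 0.194), and 0.12 at 30 months. Pax7 was at 0 in 3 libraries of 10m xNMJ and in 1 of 10m NMJ, and in 3 of 30m xNMJ and 2 of 30m NMJ. The part of these cells in the region differences of Itgb5, Itga9, Itga7 and Itgb1 was not tested.

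Markers of fibers, vessels and tendon were counted in the same way. Of all tested genes 5.05% were called lower at 10 months and 4.25% at 30 months, and 6.5% and 5% were called higher. Of 7 fiber markers Ckm, Acta1 and Myh1 were lower in NMJ at both ages (Ckm -1.08 ± 0.23 at each age, adjusted p = 0.00171 and 0.00203), as Itgb1bp2 was. Endothelial markers had 1 of 8 lower at 10 months (Flt1), a count near the background, and 3 at 30 months (Flt1, Cdh5 and Egfl7). Their sum was between 44.1 and 152 TPM over all libraries. Of 8 markers of pericytes and smooth muscle only Cspg4 was higher, at both ages, a count near the background. Abcc9 and Rgs5 were lower at 30 months. Of 3 tested markers of the myotendinous junction and tendon, a further site rich in integrins, Mkx was lower at both ages (-1.44 ± 0.23 and -1.07 ± 0.23). Tnmd and Col22a1 were at 0 in most libraries of each group. On library totals these lower calls were lost for Ckm, Acta1, Myh1 and the endothelial and pericyte genes at both ages, and for Mkx at 30 months (-0.42 ± 0.22) but not at 10 months (-0.90 ± 0.22, adjusted p = 0.00399), while Des, the desmin of fibers, was called higher at both ages (0.66 ± 0.20 and 0.67 ± 0.20) and Ttn (titin) at 30 months (0.81 ± 0.19). Etv5, a transcription factor of synaptic nuclei, was the one marker called for age, in xNMJ (4.61 ± 0.87, adjusted p = 0.0309), and the call was lost without 30m xNMJ replicate 5, the library with high synaptic markers (2.67 ± 0.64, adjusted p = 0.104). Without that library Cspg4 also lost its call at 30 months (1.61 ± 0.55, adjusted p = 0.0542).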

How the data were processed

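Groups came from the sample labels. The authors trimmed single-end reads with cutadapt 1.9.1 and assigned them with kallisto 0.43.1 to protein-coding transcripts of GRCm38 without strand. The counts were deposited as whole numbers that the authors had not normalized, and the deposited TPM values were scaled by the authors for transcript length and library total. Counts were analyzed with edgeR 4.0.16 (R 4.3.3): TMM factors, at least 1 CPM in at least 8 libraries, one quasi-likelihood fit of the 4 groups, two-sided tests and Benjamini-Hochberg adjustment over all tested genes with a threshold of 0.05. Standard errors of edgeR fold changes were derived from the test, as the absolute log2 fold change divided by the square root of its F statistic. CPM are counts relative to the TMM-scaled library total, and correlations used log2 CPM with a prior count of 2. Libraries of a group differed by more than counting noise, with a chi-squared per gene of at least 24.5.

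Alternatives were edgeR with DESeq2 size factors, DESeq2 1.42.0 itself, the fit unfiltered, only the groups compared, a replicate block, insert size as covariate, limma 3.58.1 on log2(TPM + 1) and log2(TPM + 0.1), each library left out and, added after seeing the data, library totals and, for the gene lists, 30m xNMJ replicate 5 left out. The members and gene lists were chosen with earlier results of these data known. Named genes are all members and, per list, the 3 smallest adjusted p-values among called genes at each age, any called for age, and the most abundant, beside the 3 genes most like each member; genes of these rules that the text leaves out are not reported here. Itgb3 and other genes in counts of 5 or fewer, and marker genes named for a value of 0, were chosen after their values were seen. The steps were tested on simulated data. Positions came from GENCODE M21, promoters from RefSeq. The figures used matplotlib 3.10.9.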

Additional observations from a re-analysis of the deposited data

Results flagged for a closer look

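In 4 of 40 groups of 8 libraries, 1 library lay far above the others in CPM by Dixon's criterion, which chance meets in about 1 in 20 groups, and on log2 CPM it was met in 0 of the 40. Itgav was at 73.5 CPM in 30m xNMJ replicate 3, against 7.45 to 26.7 in the others. Itga9 was at 12.6 CPM in 30m xNMJ replicate 5, the library with high synaptic markers, where the next was at 4.92. Itga1 was at 77.8 CPM in 30m NMJ replicate 2, where the next was at 43.7, and Itga5 at 9.40 CPM in 10m NMJ replicate 7, where the next was at 4.37.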

How the results depend on the processing

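At 10 months 4 integrin members were called, and 5 with DESeq2, 8 with limma on log2(TPM + 1), 8 on log2(TPM + 0.1) and 7 on library totals. At 30 months 3 were called, 5 with DESeq2, 7 with limma on either TPM scale and 7 on library totals. The share of all tested genes called moved with these counts. DESeq2 called 14.6% of them at 10 months and 12.2% at 30 months, limma on log2(TPM + 1) 20.9% and 25.5%, limma on log2(TPM + 0.1) 21.5% and 26.3%, and library totals 20.5% and 19.7%. On the TPM scales, which carry no TMM factors, the median gene was 0.37 and 0.57 higher in NMJ at 10 months and 0.49 and 0.73 higher at 30 months. Leaving out single libraries gave 3 to 5 at 10 months (10.2% to 12.2% of all tested genes) and 2 to 5 at 30 months (7.93% to 10.6%), the 5 without 10m xNMJ replicate 8 (9.51%), and 0 in all of the age comparisons and the interaction, which also called 0 under every other alternative run. Itga3 passed the filter in 24 of the 32 runs with a library left out, so the other runs tested 9 members. Itgb5 kept its call and direction in all alternatives run at both ages, as did Itga9 and Itgb1bp2 at 10 months.

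The replicate numbers are shared by NMJ and xNMJ labels of an age, and the labels do not say that a number marks one animal or batch. Of 16 pairs 5 had a correlation of deviations over 0.1 (-0.0175 to 0.366), which is short of every pair, so the samples were not treated as paired. In 13 of 16 the correlation was above the mean with other numbers and in 8 it was the highest, a hint of pairing from the data and not from the design. With a replicate block 4 members were called at 10 months (13.1% of all tested genes) and 5 at 30 months (10.9%), with Itga7 at 1.56 (adjusted p = 0.0608) and Itga1 at 0.92 (adjusted p = 0.0212) at 10 months and Itga9 at 3.92 (adjusted p = 0.00832) and Itgav at 1.14 (adjusted p = 0.0178) at 30 months. The block turned values that were not called for Itga3 at 30 months (0.25) and in the interaction for Itga5 (0.40) and Itga9 (0.51).

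Other values that turned sign were not called in either fit, and the cause was not tested. Between regions these were Itga6 at 10 months on log2(TPM + 1) (0.13), log2(TPM + 0.1) (0.13) and library totals (0.36), Itga6 at 30 months on library totals (0.38), and Itga3 at 30 months on the same 3 scales (0.0745, 0.38 and 0.0131). Between the ages in NMJ, Itgb1 turned with DESeq2 size factors (-0.0134) and DESeq2 (-0.0133), Itgb5 on both TPM scales (0.0937 and 0.0947), and Itgb1bp2 with DESeq2 size factors (-0.0247), DESeq2 (-0.0250), no filter (-0.00345) and only the groups compared (-0.00345). In xNMJ, Itga9 (-0.12 and -0.68) and Itgb5 (0.11 and 0.13) turned on log2(TPM + 1) and log2(TPM + 0.1). In the interaction, Itga5 turned with insert size (0.0398) and both TPM scales (0.0725 and 0.14), Itga6 on library totals (0.0158), Itga9 on log2(TPM + 0.1) (0.36), and Itgb5 with insert size (0.0201) and on library totals (0.0744). Leaving out single libraries turned 73 uncalled values for age and the interaction. The ranges in NMJ were -0.00107 to 0.676 for Itga5, -0.367 to 0.0252 for Itga7, -0.0760 to 0.10 for Itgb1, -0.111 to 0.0513 for Itgb5 and -0.0962 to 0.0887 for Itgb1bp2. In xNMJ they were -0.179 to 0.750 for Itga5, -0.869 to 0.872 for Itga9 and -0.156 to 0.186 for Itgb5. In the interaction they were -0.267 to 0.0838 for Itga1, -0.526 to 0.404 for Itga5, -0.183 to 0.148 for Itga6, -1.12 to 0.615 for Itga9 and -0.219 to 0.123 for Itgb5.

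Low counts were most frequent for Itga3, Itga5 and Itga9, which had at most 3 counts in 17, 8 and 8 of 32 libraries.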
